A study of Homo sapiens with 16 samples.

Results

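The 10 genes described here encode transforming growth factor beta (TGF-beta) ligands, receptors and SMAD proteins, with one target gene: TGFB1, TGFB2, TGFB3, TGFBR1, TGFBR2, SMAD2, SMAD3, SMAD4, SMAD7 and CCN2. They were picked by symbol, and each had 1 row among the 60669 genes of both deposited tables. The list was drawn up with results of these data known, the deposited poly(A) fold change of TGFB2 among them, so the fold changes and adjusted p-values below describe rows of fits over all genes. No test over the 10 genes was made.

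HMC3 is a human cell line that was established as microglial. It was sequenced as wild type and as a line labelled METTL3 KO, a knockout of the gene for the enzyme that places the N6-methyladenosine (m6A) mark on messenger RNA. Of 16 libraries, 5 wild-type and 5 knockout libraries were made from poly(A)-selected RNA with Smart-seq2. A further 3 of each genotype were made from RNA depleted of ribosomal RNA (rRNA), with a directional kit. No treatment is named for either genotype, and how the knockout was made, from how many clones, and whether replicates were separate cultures are not stated in the sources used here. The p-values therefore measure only the spread between these libraries, which may be technical.

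TGF-beta ligands are secreted as latent dimers that are held in the matrix until they are activated. An active ligand binds the type II receptor, which phosphorylates the type I receptor. The activated type I receptor phosphorylates SMAD2 and SMAD3, which join SMAD4 and enter the nucleus to regulate target genes such as CCN2, while SMAD7 is itself induced by the signal and feeds back on the receptors. In the brain, TGF-beta is known as a signal that microglia need to keep their mature state.

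METTL3 messenger RNA was not lower in the libraries labelled knockout. The wild-type rRNA-depleted libraries held 31.2, 31.6 and 25.4 TPM (a unit for the share of a gene in a library's transcripts after division by its length) and the libraries labelled knockout 39.2, 40.0 and 42.7 TPM. The limma fit on log2(TPM + 1) gave a log2 change of 0.48 (SE 0.19, adjusted p = 0.106), and the authors' deposited table gave 0.09 (SE 0.11, adjusted p = 0.654). The messenger RNA level thus did not check the label. Of 13 microglial markers, 9 were listed at 0 TPM in all 6 libraries (ITGAM, AIF1, CX3CR1, P2RY12, TMEM119, PTPRC, SPI1, C1QA and TYROBP). A further 3, CSF1R, CD68 and TREM2, had at most 1 read in any library. At the depth of these libraries, these markers thus did not show a microglial identity. Of 9 fibroblast and mesenchymal markers, with LUM at 0, the sum was 11650 to 14076 TPM in wild type and 5624 to 5722 TPM in knockout. COL1A1 carried that drop: the other 8 summed to 2038 to 2156 TPM in wild type and 4826 to 4906 TPM in knockout. Those 8 did not move together. COL1A2 was lower too, at 511 to 621 TPM in wild type and 118 to 126 TPM in knockout. FN1 was higher, at 803 to 871 TPM in wild type and 2168 to 2237 TPM in knockout. The part of these markers in the results below was not tested. Depth was low, at 266157 to 487272 reads in wild type and 512627 to 1267171 in knockout. Knockout libraries 1 and 2 did not differ beyond sampling noise in a chi-square test and were counted as 1 sample, so that 3 wild-type samples were set against 2 knockout samples.

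Promoter sequence is shown for TGFB2, the ligand with the largest deposited fold change, and for CCN2, a textbook target of SMAD and TEAD factors. Each is the 250 bases before the RefSeq gene start (GRCh38.p14), 5′ to 3′ on the gene's strand, at chr1:218345086-218345335 (plus) for TGFB2 and chr6:131951373-131951622 (minus) for CCN2. Capitals mark the SMAD-binding pentamer CAGAC and the TEAD motif GGAATG, on either strand.
TGFB2: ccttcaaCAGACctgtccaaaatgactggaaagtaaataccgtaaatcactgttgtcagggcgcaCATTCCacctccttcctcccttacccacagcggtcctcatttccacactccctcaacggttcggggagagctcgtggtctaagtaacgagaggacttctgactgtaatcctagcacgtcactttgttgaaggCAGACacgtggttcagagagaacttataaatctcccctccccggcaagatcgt
CCN2: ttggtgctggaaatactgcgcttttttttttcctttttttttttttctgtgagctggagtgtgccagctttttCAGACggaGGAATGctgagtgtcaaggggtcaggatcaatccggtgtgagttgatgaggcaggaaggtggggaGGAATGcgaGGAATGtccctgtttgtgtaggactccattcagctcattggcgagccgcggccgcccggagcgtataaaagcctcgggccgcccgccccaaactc
The TGFB2 window held 2 CAGAC matches and 1 GGAATG match, the last read on the opposite strand. The CCN2 window held 1 CAGAC match and 3 GGAATG matches. The table had 26 such windows for the 10 genes, and CAGAC was found in 11 of them, belonging to 6 genes (TGFB2, TGFB3, TGFBR1, SMAD3, SMAD7 and CCN2). Over all 35116 RefSeq windows, 38.0% held CAGAC and 11.9% held GGAATG. The TEAD motif was in 3 of the 26 windows, 1 each of TGFB2, TGFBR1 and CCN2. The AP-1 motif TGANTCA, found in 6.57% of all windows, was in 1 window of SMAD3. The longer SMAD palindrome GTCTAGAC, which contains neither shorter SMAD nor TEAD motif, was in 0.182% of all windows and in none of the 26. A match is a description of the letters and no measurement of binding.

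In wild-type cells, CCN2 had the highest level of the 10 and TGFB3 the lowest, both per length in TPM. CCN2 averaged 536 ± 85.3 TPM (SD, n = 3), above 98.8% of the 14789 genes tested. TGFB1, at 97.7 ± 9.63 TPM, stood above 90.0% of them. SMAD3 followed at 25.2 ± 1.57 TPM, and the ranges of these 3 genes did not overlap. Next came TGFBR1 (17.5 ± 3.65 TPM), TGFBR2 (14.7 ± 5.08 TPM) and TGFB2 (12.7 ± 2.13 TPM), where neighbours overlapped, and all TGFB2 values lay above those of SMAD7. SMAD7 (9.24 ± 0.726 TPM), SMAD4 (6.47 ± 2.37 TPM) and SMAD2 (5.59 ± 1.62 TPM) likewise overlapped from each to the next, and all SMAD2 values lay above those of TGFB3. SMAD2 is divided by a length of 36366 bases in GENCODE 29, against 13123 for SMAD4, so it had the lower TPM of the pair with more reads in every library. In knockout, CCN2 and TGFB1 kept the highest places and TGFB3 the lowest. Between them, neighbours overlapped in the order SMAD3, TGFBR2, TGFBR1, TGFB2, SMAD4 and SMAD7, and SMAD2 lay below SMAD7 without overlap.

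The 2 library types ranked some of these genes differently. By the mean normalized count per kilobase in the authors' deposited table, TGFB1 stood above 13.2% of 13951 genes and SMAD7 above 5.25%, against 90.0% and 40.3% by wild-type TPM. TGFB2 went the other way, at 77.7% by the authors' deposited table and 48.2% by TPM. Behind this, the mean normalized count in the authors' deposited table was 2.32 for TGFB1, 1.43 for TGFB3 and 1.76 for SMAD7, against 122 for TGFB2 and 138 for CCN2. TGFB1 and SMAD7 also had the highest GC content of the 10, 63.5% and 58.7%. These ranks mix wild type and knockout on one side only, and no test sets them against each other.

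**Figure D1:**
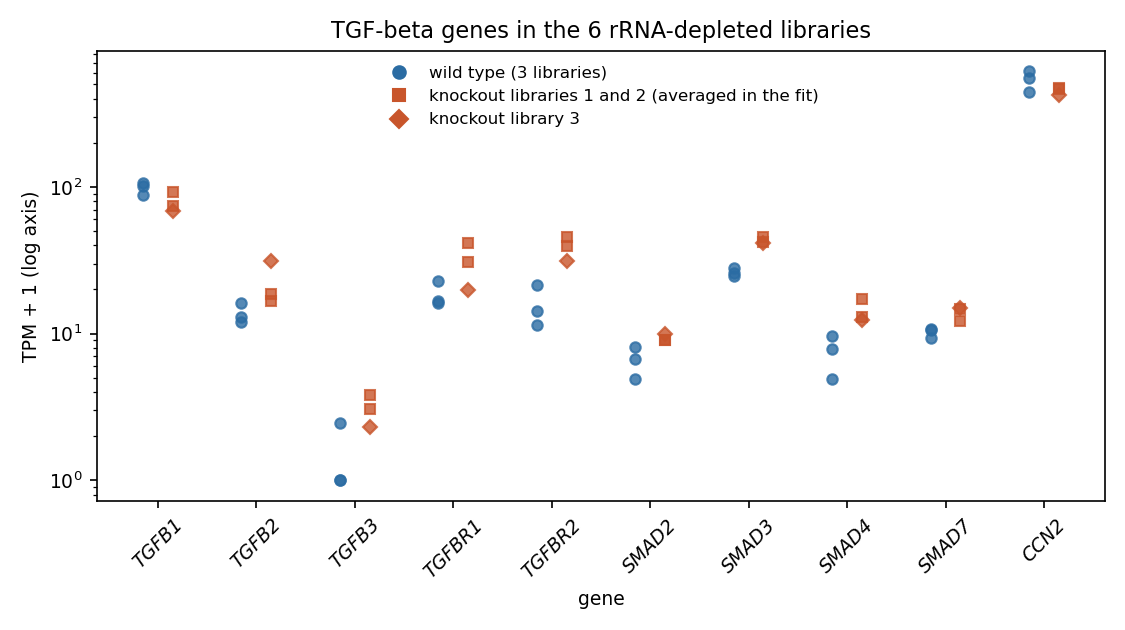
TPM + 1 of the 10 TGF-beta genes on a log axis in each of the 6 rRNA-depleted libraries, 3 wild type (circles) and 3 labelled knockout (squares for libraries 1 and 2, diamond for library 3). Knockout points lie above every wild-type point for TGFB2, TGFBR2, SMAD2, SMAD3, SMAD4 and SMAD7. Both knockout samples of the fit lay above wild type in 41.1% of all genes. TGFB1, TGFB3, TGFBR1 and CCN2 show points that overlap.

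Across the 10 genes, SMAD3 and TGFBR2 were called in both library types and were higher in knockout in both, whereas TGFB2 was called lower in the poly(A) comparison and did not pass in the rRNA-depleted one. In the rRNA-depleted fit, 2 of 10 genes had an adjusted p under 0.05 (limma), beside 35.3% of all 14789 genes tested, of which 22.9% were higher and 12.4% lower in knockout. All 10 genes passed the filter on low values. TGFB3 did so only with its knockout libraries, since wild type held 1.44, 0 and 0 TPM. Its sign was therefore close to fixed by the filter, though it is counted in the next figures. The log2 change was above 0 for 8 of the 10, beside 62.4% of all genes, and their median was 0.63, beside 0.41 for all genes. The same 8 stayed above 0 with median ratio scaling, while removing the GC trend turned TGFB1 positive and TGFBR1 and SMAD2 negative. Leaving out 1 library gave 0 to 2 called genes. For 7 of the 10 (TGFB1, TGFB2, TGFBR2, SMAD2, SMAD3, SMAD4 and SMAD7) the 2 knockout samples lay wholly on one side of the wild-type samples, beside 62.7% of all genes. Of these 7, 6 lay higher (41.1% of all genes) and TGFB1 lower. The authors' deposited table called 3 of the 10, beside 19.9% of its 14009 genes with an adjusted p, 9.55% positive and 10.3% negative. It gave a positive value for 8 of the 10, beside 51.5% of its genes, and the median over the 10 was 0.38, beside 0.02 over all genes in the authors' deposited table. The counts of called genes among the 10 are thus not set apart from those over all genes.

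**Figure D2:**
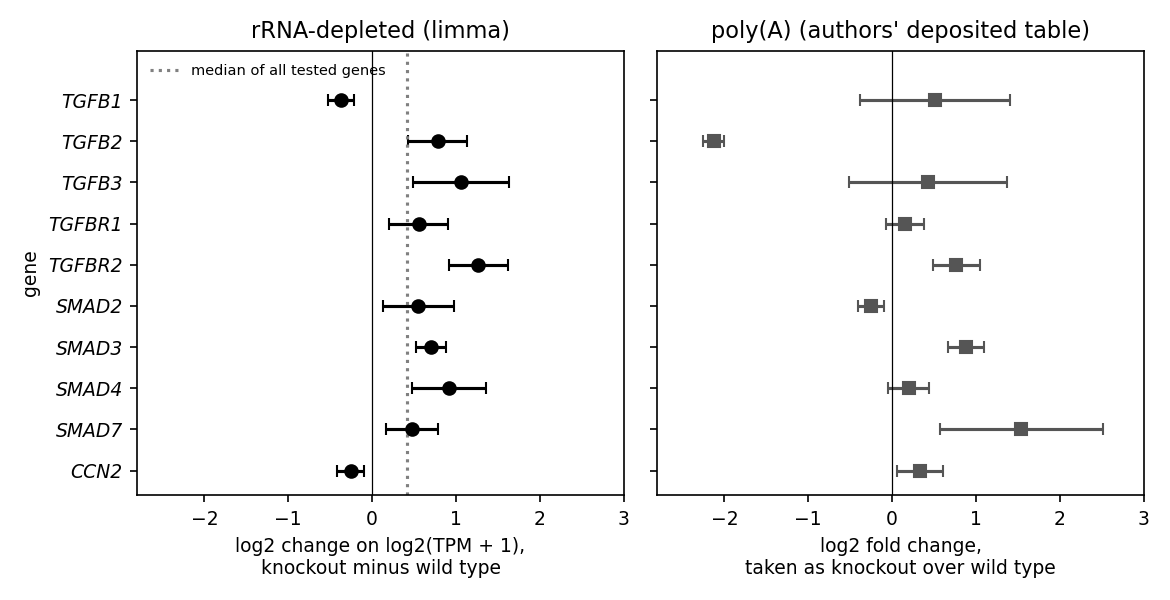
Log2 change of the 10 genes with its standard error (bars), from limma on log2(TPM + 1) in rRNA-depleted libraries (left; the dotted line is the median of all genes, 0.41) and from the authors' deposited table for poly(A) libraries (right). TGFB2 lies at 0.78 on the left and -2.13 on the right, while TGFBR2 and SMAD3 lie above 0 on both sides.

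TGFB2 (chr1:218346235-218444619, plus strand, GRCh38), the ligand whose isoform needs the co-receptor betaglycan to bind the type II receptor well, gave opposite signs in the 2 library types. The authors' deposited table gave a log2 fold change of -2.13 (SE 0.12, adjusted p = 6.99e-65), a knockout level of 0.228 times the wild type when positive is read as higher in knockout. In the rRNA-depleted libraries TGFB2 stood at 11.0, 12.1 and 15.1 TPM in wild type and 15.6, 17.5 and 30.1 TPM in knockout. No knockout library lay below a wild-type library, but knockout 1 and wild type 3 were almost level, and knockout 3 was far above the rest. Wild type averaged 12.7 ± 2.13 TPM and knockout 23.3 ± 9.55 TPM (SD, n = 3 and 2), and the log2 change was 0.78 (SE 0.36, by limma with adjusted p = 0.147), short of the threshold. These values rest on 8, 6 and 13 reads in wild type and 24, 33 and 24 in knockout. Set against the median of all genes, the change was 0.37. Without knockout 3 the log2 change was 0.37, which was -0.13 relative to the median of that fit. With the trend in GC content removed it was 0.13, or -0.30 relative to the median there. Relative to the median, the sign was thus positive in the main fit and negative in both of these. The difference between the library types was not tested, because the poly(A) libraries were analysed here only through their comparison table.

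TGFB1 (chr19:41301587-41353911, minus strand), the ligand most widely made by immune cells, was the most abundant ligand in the rRNA-depleted libraries. It stood at 101, 105 and 86.9 TPM in wild type and at 91.1, 73.6 and 67.8 TPM in knockout. The libraries overlapped, since knockout 1 lay above wild type 3. Wild type averaged 97.7 ± 9.63 TPM and knockout 75.1 ± 10.3 TPM (SD, n = 3 and 2), with a log2 change of -0.38 (SE 0.16, by limma with adjusted p = 0.117). TGFB1 has the highest GC content of the 10 genes, and its log2 change turned to 0.42 with the GC trend removed. It passed as lower, at -0.73 (limma adjusted p = 0.0198), when libraries were rescaled by median ratios. In the authors' deposited table TGFB1 had a log2 fold change of 0.51 (SE 0.89, adjusted p = 0.759).

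On the opposite strand, TGFB1 is overlapped by HNRNPUL1, at 108 to 119 TPM in wild type and 187 to 193 TPM in knockout, by CCDC97 (21.7 to 40.6 TPM over the 6 libraries) and by TMEM91 (2.31 to 19.3 TPM). The sources used here do not say if reads were counted by strand, and those of the overlapping stretches may have gone to either gene. TGFB3 is overlapped in the same way by IFT43, at 4.96 to 15.5 TPM. The antisense gene AL133346.1, which overlaps CCN2, was at 24.2 TPM in wild type 3 and at 0 in the other 5 libraries. All other genes annotated opposite a member were listed at 0.

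TGFB3 (chr14:75958099-75982991, minus strand), a ligand best known from palate and wound healing, was close to the limit of detection. Wild-type libraries held 1, 0 and 0 reads and knockout libraries 3, 5 and 1 reads, or 1.44, 0 and 0 TPM against 2.05, 2.79 and 1.31 TPM. A count of 3 reads, the floor used here, corresponds to 3.65 to 6.32 TPM in wild type and 1.67 to 3.94 TPM in knockout. The groups overlapped and the wild type was at the floor. No fold is given, and the limma adjusted p was 0.204. The authors' deposited table gave 0.43 (SE 0.94, adjusted p = 0.816).

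As shares of the summed TPM of the 3 ligands, TGFB1 made up 89.0%, 89.7% and 85.2% in wild type and 83.8%, 78.4% and 68.3% in knockout. TGFB2 made up 9.73%, 10.3% and 14.8% in wild type and 14.4%, 18.7% and 30.3% in knockout. Wild type 3 and knockout 1 thus had nearly the same ligand makeup, and the spread in knockout was wider than in wild type. The mean TGFB2 share was 11.6% ± 2.79 (SD, n = 3) and 23.3% ± 9.87 (SD, n = 2). TGFB1 exceeded TGFB2 by 9.15, 8.75 and 5.75 times in wild type and by 5.83, 4.19 and 2.25 times in knockout. A two-sided exact permutation test of 3 against 2 samples cannot go below p = 0.2, which is the value for each of the 3 shares and for the TGFB1 to TGFB2 ratio. After Benjamini-Hochberg adjustment over the 7 ratios and shares computed here, the exact permutation p was 0.35.

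**Figure D3:**
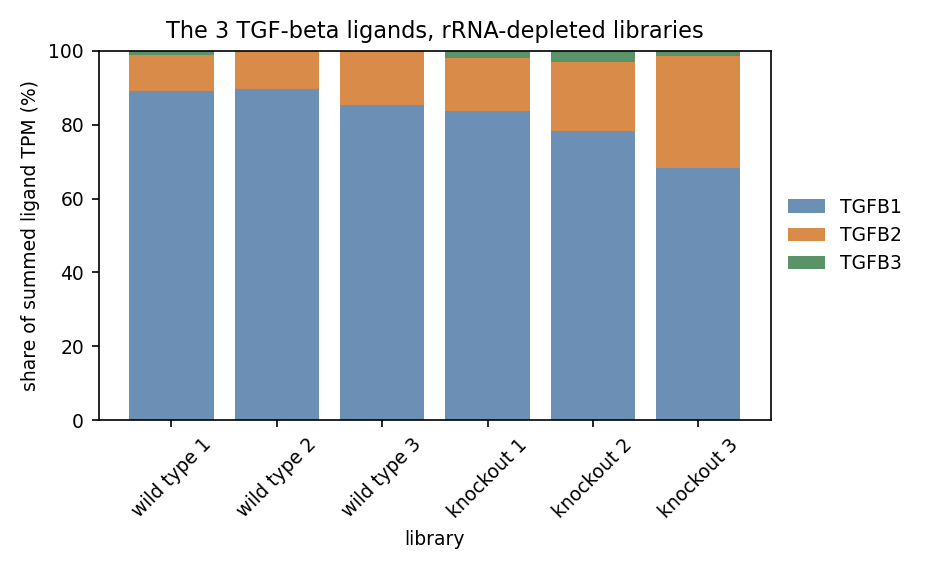
Share of TGFB1, TGFB2 and TGFB3 in their summed TPM (percent) for each of the 6 rRNA-depleted libraries, as stacked bars from 0 to 100. The TGFB2 share is 9.73% to 14.8% in wild type and 14.4% to 30.3% in knockout, so that the libraries overlap slightly.

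TGFBR2 (chr3:30606502-30694142, plus strand), the ligand-binding type II receptor, was higher in knockout in both library types. Wild-type libraries held 10.5, 13.2 and 20.4 TPM and knockout libraries 44.9, 38.4 and 30.2 TPM. Behind these values were 7, 6 and 16 reads in wild type and 63, 66 and 22 in knockout. The groups did not overlap, and the lowest knockout library lay above the highest wild-type one. The means of 14.7 ± 5.08 and 35.9 ± 8.10 TPM (SD, n = 3 and 2) differed 2.44-fold, with a log2 change of 1.26 (SE 0.35, by limma with adjusted p = 0.0423), or 0.85 above the median of all genes. The authors' deposited table gave a log2 fold change of 0.77 (SE 0.28, adjusted p = 0.0312). The call in the rRNA-depleted libraries was close to the threshold: its direction held under 13 alternatives to the fit, with adjusted p from 0.00732 to 0.155 (limma), and without wild type 1, wild type 2 or knockout 3 it was lost (0.0815, 0.0818 and 0.155). It was also lost with a pseudocount of 0.1 (limma adjusted p = 0.0501), with no filter (0.0586), with median ratio scaling (0.095) and with the GC trend removed (0.0726).

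TGFBR1 (chr9:99104038-99154192, plus strand), the type I receptor kinase that phosphorylates SMAD2 and SMAD3, did not pass in either table. It stood at 21.7, 15.1 and 15.7 TPM in wild type and 40.6, 30.0 and 18.9 TPM in knockout. Knockout 3 lay below wild type 1, so the groups overlapped. The log2 change was 0.55 (SE 0.36, by limma with adjusted p = 0.279), and it turned to -0.09 with the GC trend removed. The authors' deposited table gave 0.16 (SE 0.23, adjusted p = 0.707). The ratio of TGFBR1 to TGFBR2 was 2.06, 1.15 and 0.773 in wild type and 0.906, 0.781 and 0.625 in knockout, with overlap (exact permutation p = 0.4).

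SMAD3 (chr15:67063763-67195195, plus strand), the receptor-regulated SMAD that binds DNA directly, varied little within each group and was higher in knockout in both library types. It stood at 24.9, 23.8 and 26.9 TPM in wild type and 44.9, 40.9 and 40.4 TPM in knockout. A wide gap separated the groups, with little spread inside either. Wild type averaged 25.2 ± 1.57 TPM and knockout 41.6 ± 1.75 TPM (SD, n = 3 and 2), which is 1.65-fold higher, or 0.70 on the log2 scale (SE 0.17, by limma with adjusted p = 0.0306). Relative to the median of all genes the change was 0.29, and with median ratio scaling the log2 change was 0.36 (limma adjusted p = 0.164), which did not pass. Removing wild type 1, 2 or 3 or knockout 3 also ended the call, with limma adjusted p of 0.0686, 0.0533, 0.0512 and 0.0955, as did voom on recovered reads (0.0596). In the authors' deposited table SMAD3 had a log2 fold change of 0.88 (SE 0.21, adjusted p = 0.000547).

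SMAD2 (chr18:47808957-47931146, minus strand), the other receptor-regulated SMAD of the pathway, did not pass in either table. It stood at 3.90, 7.11 and 5.76 TPM in wild type and 8.11, 7.98 and 8.88 TPM in knockout. The groups did not overlap, yet the wild-type libraries were far apart, and the log2 change was 0.55 (SE 0.42, by limma with adjusted p = 0.355). With the GC trend removed it was -0.03. The authors' deposited table gave -0.25 (SE 0.15, adjusted p = 0.271). The ratio of SMAD2 to SMAD3 ran from 0.157 to 0.298 in wild type and from 0.181 to 0.220 in knockout, so the knockout values fell inside the wild-type range (exact permutation p = 1.0).

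SMAD4 (chr18:51028394-51085045, plus strand), the common partner of the receptor-regulated SMADs, stood at 8.64, 3.94 and 6.84 TPM in wild type and 16.1, 11.9 and 11.3 TPM in knockout. All knockout libraries lay above all wild-type libraries, but wild type 2 rests on 5 reads. The log2 change of 0.92 (SE 0.44, by limma with adjusted p = 0.166) did not pass, and the authors' deposited table gave 0.20 (SE 0.25, adjusted p = 0.646).

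SMAD7 (chr18:48919853-48952052, minus strand), the inhibitory SMAD of the feedback loop, stood at 9.59, 8.41 and 9.73 TPM in wild type and 13.6, 11.1 and 14.0 TPM in knockout. The groups did not overlap, but the wild-type values rest on few reads. Those reads did not come out whole, so their distance from the floor of 3 reads is not given. The log2 change of 0.47 (SE 0.31, by limma with adjusted p = 0.291) was level with the median of all genes, 0.06 above it. In the authors' deposited table SMAD7 had the largest positive value of the 10, 1.54, with an error almost as wide (SE 0.97, adjusted p = 0.291) and a mean normalized count of 1.76. The ratio of SMAD7 to SMAD4 was 1.11, 2.13 and 1.42 in wild type and 0.846, 0.935 and 1.24 in knockout, with overlap (exact permutation p = 0.4).

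CCN2 (chr6:131948176-131951373, minus strand), listed as CTGF in GENCODE 29, encodes connective tissue growth factor, a secreted matrix protein induced by TGF-beta and by YAP with TEAD. It stood at 445, 549 and 614 TPM in wild type and 469, 466 and 425 TPM in knockout. The knockout libraries were close together and overlapped with wild type 1, the lowest of a wider wild-type group. Wild type averaged 536 ± 85.3 TPM and knockout 446 ± 29.8 TPM (SD, n = 3 and 2), with a log2 change of -0.25 (SE 0.16, by limma with adjusted p = 0.273), or -0.66 relative to the median of all genes. With median ratio scaling it passed as lower, at -0.61 (limma adjusted p = 0.0416), and voom on recovered reads gave -0.49 (limma adjusted p = 0.000804). The authors' deposited table gave 0.34 (SE 0.27, adjusted p = 0.444).

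The genes whose levels followed TGFB2 and CCN2 most closely over the 6 rRNA-depleted libraries were chosen among 12114 genes by the Euclidean distance of centred log2(TPM + 1). For TGFB2 they were CHROMR (distance 0.313), FSD1 (0.345) and SIDT2 (0.369). FSD1, for example, went from 22.8, 20.0 and 32.7 TPM in wild type to 31.2, 39.6 and 58.1 TPM in knockout, with knockout 3 highest as for TGFB2. For CCN2 they were PEF1 (0.157), NLGN2 (0.159) and TEPSIN (0.162). None of the 3 genes near TGFB2 passed in the authors' deposited table, where their log2 fold changes were -0.22 for CHROMR, 0.06 for FSD1 and 0.57 for SIDT2. Of those near CCN2, PEF1 was called there, at -0.34 (adjusted p = 0.00736). NLGN2, at 0.73 (adjusted p = 0.178), and TEPSIN, at 0.65 (adjusted p = 0.395), were not.

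The other genes of the pathway were taken from 6 lists with 95 genes in all, of which 78 passed the filter in the rRNA-depleted libraries. Of these, 24 were higher and 10 lower in knockout at an adjusted p under 0.05 (limma), beside 22.9% higher and 12.4% lower over all genes. Their median log2 change was 0.23, which is -0.18 relative to that of all genes. Without knockout 3 the counts were 7 and 4, and with median ratio scaling 19 and 14. Among the genes described below, FURIN, ENG, BMPR2, SP1, TRIM33, SKIL, STRAP, INHBB, GDF6, ID2, ID3, IL11, CCN1 and CDKN2B lost the call without knockout 3, with limma adjusted p from 0.0661 (SP1) to 0.201 (GDF6). With the GC trend removed, BMPR2, SMAD5, TRIM33, SKIL, ID3 and IL11 lost it, from 0.0547 (TRIM33) to 0.366 (IL11). GDF6, ID3 and CCN1 also lost it without wild type 1 (limma adjusted p of 0.0656, 0.0552 and 0.0526), and GDF6 and ID3 without wild type 3 (0.0524 and 0.0544). The authors' deposited table called 15 of 78 positive and 10 negative, beside 9.55% and 10.3% of its genes. The median there was 0.19, beside 0.02 over all its genes. Of the 17 pathway genes called in both, 12 had the same sign.

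Among 13 ligand latency and activation genes, 1 of 10 tested was called higher and none lower, beside 22.9% and 12.4% of all genes. The called gene was FURIN, the protease that cleaves the TGF-beta precursor. It stood at 20.5 ± 2.16 TPM in wild type and 35.6 ± 1.83 TPM in knockout (log2 change 0.77, limma adjusted p = 0.0366). The FURIN call was lost without wild type 1, wild type 3, knockout 2 or knockout 3 (limma adjusted p of 0.0759, 0.0628, 0.0703 and 0.15), with median ratio scaling (0.18) and with voom (0.16). In the authors' deposited table FURIN had -0.76 (adjusted p = 0.271). There, 1 of 10 genes of the list was called, beside 19.9% of all genes. The list median was 0.30 in the rRNA-depleted fit, beside 0.41 for all genes.

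Of 12 co-receptors and other type I and type II receptors, 2 of 9 tested were called higher and none lower. Over all genes, 22.9% were called higher and 12.4% lower. The co-receptor endoglin, ENG, rose 4.05-fold from 20.2 ± 7.85 to 81.8 ± 9.61 TPM (log2 change 2.02, SE 0.34, limma adjusted p = 0.00986), while the authors' deposited table gave -0.35 (adjusted p = 0.355). BMPR2, the type II receptor for bone morphogenetic proteins, rose 2.53-fold from 15.7 ± 4.80 to 39.7 ± 5.41 TPM (limma adjusted p = 0.0254). The BMPR2 call was lost without wild type 1 (0.0625), without knockout 3 (0.136), with median ratio scaling (0.0551) and with the GC trend removed, where the log2 change was 0.59 (limma adjusted p = 0.175). It was also called in the authors' deposited table, at 0.60 (adjusted p = 0.000916). Betaglycan, TGFBR3, the co-receptor of TGFB2, is named here after its values were seen: the authors' deposited table called it positive, at 1.30 (adjusted p = 3.4e-06). In the rRNA-depleted libraries TGFBR3 had the opposite sign, at 9.93 ± 1.70 TPM in wild type and 6.84 ± 0.226 TPM in knockout (log2 change -0.47, limma adjusted p = 0.351), which did not pass.

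Of 12 other SMADs and SMAD partners, 5 of 11 tested were called higher and none lower, beside 22.9% and 12.4% of all genes. The list median was 0.12, beside 0.41 for all genes. SMAD5, which carries bone morphogenetic protein signals, rose 2.73-fold from 17.7 ± 1.75 to 48.4 ± 9.12 TPM (limma adjusted p = 0.00889), and the authors' deposited table gave 0.47 (adjusted p = 0.000141). SP1, a transcription factor that cooperates with SMADs, had a log2 change of 2.10 (limma adjusted p = 0.0042). TRIM33, a ubiquitin ligase that binds SMADs, had 1.56 (limma adjusted p = 0.0117). Neither was called in the authors' deposited table, where SP1 had 0.32 and TRIM33 0.03.

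Of 16 pathway inhibitors and ubiquitin ligases, 7 of 15 tested were called higher and 1 lower, beside 22.9% and 12.4% of all genes. GREM1, a secreted antagonist of bone morphogenetic proteins, had the largest rise in the 6 lists. It stood at 10.7, 5.67 and 9.02 TPM in wild type and 117, 125 and 105 TPM in knockout, 13.4-fold higher (log2 change 3.63, SE 0.31, limma adjusted p = 0.00202). GREM1 was called in the same direction in the authors' deposited table, at 1.77 (adjusted p = 1.94e-82). The repressor SKIL, which binds SMADs at target genes, rose from 7.40 ± 3.22 to 33.2 ± 1.20 TPM (limma adjusted p = 0.0152), with 0.17 (adjusted p = 0.62) in the authors' deposited table. STRAP, which binds SMAD7 at the receptor, rose from 78.7 ± 35.1 to 320 ± 56.0 TPM (limma adjusted p = 0.0108) but was negative in the authors' deposited table, at -0.22 (adjusted p = 0.022).

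Of 14 other ligands of the TGF-beta superfamily, 4 of 7 tested were called higher and 1 lower, beside 22.9% and 12.4% of all genes. INHBA and INHBB, the activin beta subunits whose dimers also signal through SMAD2 and SMAD3, rose in both library types. INHBA went from 25.4, 23.4 and 20.7 TPM to 59.2, 65.1 and 62.6 TPM (log2 change 1.40, SE 0.18, limma adjusted p = 0.0047), and the authors' deposited table gave 0.98 (adjusted p = 6.14e-09). INHBB went from 70.7, 54.9 and 28.0 TPM to 216, 210 and 165 TPM (log2 change 1.95, SE 0.41, limma adjusted p = 0.0186), and the authors' deposited table gave 1.61 (adjusted p = 0.00233). GDF6, a growth and differentiation factor, fell by 1.75 on the log2 scale (SE 0.40, by limma with adjusted p = 0.0236), with -0.87 (adjusted p = 0.0622) in the authors' deposited table.

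Genes that TGF-beta is known to regulate moved in both directions. The list was not split by whether TGF-beta raises or lowers a gene. Its counts and median therefore do not measure the activity of the pathway. Of 28 such genes, 5 of 26 tested were called higher and 8 lower, beside 22.9% and 12.4% of all genes. The median log2 change of the list was -0.19, beside 0.41 for all genes. The authors' deposited table called 7 of 26 positive and 9 negative, beside 9.55% and 10.3% of its genes. LOX, which cross-links collagen, rose 7.02-fold from 21.7 ± 2.60 to 152 ± 16.5 TPM (limma adjusted p = 0.00124), and the authors' deposited table gave 1.07 (adjusted p = 1.31e-32). ID2, a helix-loop-helix regulator, rose from 4.61 ± 1.86 to 60.2 ± 14.3 TPM (limma adjusted p = 0.00407), though wild type held only 2, 1 and 1 reads and no fold is given. The authors' deposited table gave ID2 0.63 (adjusted p = 8.93e-06).

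COL1A1, COL1A2, COL4A1 and COL5A1, collagen genes of the list, were lower in the rRNA-depleted libraries. COL1A1, COL1A2 and FN1 are also in the fibroblast and mesenchymal list, whose sum was lower in knockout with COL1A1 and higher without it. COL1A1 went from 10669 ± 1214 to 819 ± 64.5 TPM (log2 change -3.70, limma adjusted p = 0.000689), and the authors' deposited table gave -0.79 (adjusted p = 2.65e-15). COL4A1 had a log2 change of -2.96 (limma adjusted p = 0.000689) and -0.62 (adjusted p = 0.00171) in the authors' deposited table. COL5A1 was at -1.91 (limma adjusted p = 0.00125) but was not called in the authors' deposited table, at -0.04 (adjusted p = 0.946). CCN1, a close relative of CCN2, was lower in both, at -0.44 (limma adjusted p = 0.0224) and, in the authors' deposited table, -0.47 (adjusted p = 8.47e-07). The cell cycle inhibitor CDKN2B was also lower in both, at -1.33 (limma adjusted p = 0.00634) and, in the authors' deposited table, -0.54 (adjusted p = 0.0134).

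The 5 pathway genes called in both with opposite signs were COL1A2, FN1, IL11, ID3 and STRAP. COL1A2 was at -2.18 in the rRNA-depleted fit and at 0.30 in the authors' deposited table. Fibronectin, FN1, was at 1.39 and, in the authors' deposited table, at -0.34. The cytokine IL11 was at -0.54 and, in the authors' deposited table, at 1.42, and ID3 was at -1.04 and 0.56. TGFB2 differs from these genes in that its rRNA-depleted change did not pass. It was not alone in this, as target genes named here after their values were seen show. The authors' deposited table called TAGLN at -1.18 and CNN1 at -1.44. In the rRNA-depleted fit they were at 0.18 and 0.19 (limma adjusted p of 0.339 and 0.552). TGFBI and CDKN1A, called negative there too, kept that sign without passing, at -0.27 and -0.44 in the rRNA-depleted fit.

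**Figure D4:**
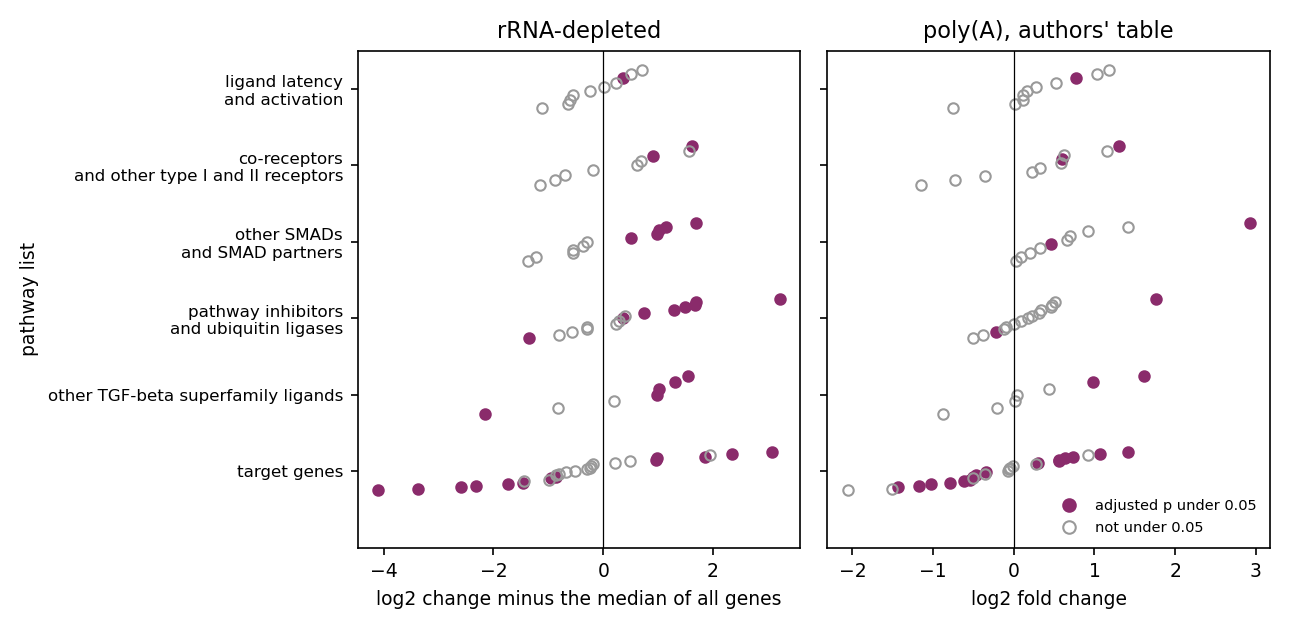
Log2 change of each gene in the 6 pathway lists, as the rRNA-depleted change minus the median of all genes (left) and as the value for poly(A) libraries in the authors' deposited table (right), each point 1 gene, filled where the adjusted p was under 0.05 and spread vertically only to separate points. Target genes lie on both sides of 0 in both panels, with 5 called higher and 8 lower on the left and 7 positive and 9 negative on the right. Over all genes, 22.9% were called higher and 12.4% lower on the left, and 9.55% positive and 10.3% negative on the right.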

How the data were processed

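RNA was sequenced from wild-type and METTL3 knockout HMC3 cells, with an input of 100 ng RNA, per the labels. The submitters' processing notes name Trimmomatic, STAR, DESeq2 and hg38, without versions or roles; the annotation and strand setting are not given in the sources used here. The deposited poly(A) table is a comparison. Its columns, per the file headers, are a mean normalized count (a pooled signal), the log2 fold change, its standard error, the Wald score, and p-values before and after adjustment. It holds no value of a single library, so the foreseen count test was replaced by a description. Its direction is not stated: positive was read as higher in knockout, since 91.5% of the 177 genes called in both tables and changed by 1 or more on the log2 scale in each then share their sign. Values of rRNA-depleted libraries were deposited by the authors as TPM.

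The 14789 genes that reached 1 TPM in 3 or more libraries were fitted on log2(TPM + 1) with limma 3.58.1 (R 4.3.3, eBayes with trend) and Benjamini-Hochberg adjustment at 0.05. A fold on this scale understates the change of low genes. Whole reads were recovered from TPM and GENCODE 29 lengths (90.9% of values above 0 whole within 0.02 reads, 93.8% of genes with a length). For SMAD7 they did not come out whole, so no reads are given. The length behind its TPM may thus differ from that of GENCODE 29, which its count per kilobase uses. Knockout libraries 1 and 2 gave a chi-square per degree of freedom of 1.02 over 10120 genes (p = 0.065), other pairs 1.16 to 1.53, and were averaged. Replicate numbers did not pair the libraries. Positions are those of GENCODE 29 and promoters those of RefSeq GRCh38.p14, for all 10 genes. The fit was tested on simulated data. Floors cover counting error only, while the SDs and limma standard errors rest on the spread between samples.

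The 10 genes and the pathway lists were chosen with earlier results of these data known. Besides the 10 genes and METTL3, the rule named the list genes called in both tables, up to 2 more per list with the largest log2 change among those called in the rRNA-depleted fit with a mean of at least 5 TPM, genes overlapping a member on the opposite strand, and the 3 genes most like TGFB2 and CCN2. Of the genes so named, examples are printed. A marker gene and a target gene of these lists are not reported here.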

Additional observations from a re-analysis of the deposited data

How the results depend on the processing

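Over all named genes, 435 values kept their direction and side of the threshold under the 13 alternatives to the limma fit, 51 lost the call, 5 gained it and 3 reversed. Depth (266157 reads in the shallowest library) limits genes with few reads, such as TGFB3.

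The 5220 genes called became 1663 to 5185 when 1 library was left out, the lowest without knockout 3, where the lone knockout sample is assumed to vary like wild type. The 34 pathway genes became 11 to 34, and the 2 members 0 to 2. One member was called with a pseudocount of 0.1, with no filter and with the GC trend removed (SMAD3 in each), and 1 (TGFBR2) where a log2 change beyond 1 in size was also required. The same requirement in the authors' deposited table left 647 of 2782 genes, 1 of 3 members (TGFB2) and 9 of 25 pathway genes.

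Median ratio scaling moved the median of all genes from 0.41 to 0.11, and the share of calls that were higher from 64.8% to 48.6% (2364 higher and 2499 lower, against 3382 and 1838). It called 2 members, CCN2 and TGFB1, both lower; 8 of 10 members stayed above 0. Voom called 3 (TGFBR2 higher, CCN2 and TGFB1 lower), with 52.4% of calls higher. GC content went with the change across genes (Spearman -0.37 over 14669 genes, which are not independent; decile medians 1.24 and -0.41). Removing its trend reversed TGFB1 (0.42), TGFBR1 (-0.095) and SMAD2 (-0.026). The difference between knockout and wild type in the log2 ratio of SMAD2 to SMAD3 went from -0.085 to between -0.31 and 0.15 with 1 library left out, the last without wild type 2. The causes were not tested.

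With a replicate block and 6 separate libraries, 6037 genes, 2 members and 36 pathway genes were called, against 6880, 2 and 38 without the block. Same-numbered libraries had deviations correlated at 0.02, -0.02 and 0.01, so the numbers did not pair them.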

Other observations

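The labels name METTL3, the m6A writer, but m6A itself was not measured in these libraries. As a description of sequence, the pentamer GGACT, a common form of the motif that METTL3 methylates, was counted in the longest coding transcript of each gene in GENCODE 29. TGFB2 held 1 GGACT in 5053 bases (0.198 per kilobase), above 8.29% of 11768 tested coding genes. CCN2 held 0 in 2339 bases, whereas TGFB1 held 4 (1.44 per kilobase), TGFBR2 5 (1.08 per kilobase) and SMAD4 10 (1.14 per kilobase), beside a median of 0.927 per kilobase. Of the genes called in the authors' deposited table, TGFB2 thus had a low density, TGFBR2 one near the median and SMAD3, with 4 in 6247 bases, 0.64 per kilobase.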
